A study of Mus musculus with 24 samples.

Results

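The calmodulin-dependent kinase genes examined here are Camk1, Camk1d, Camk1g, Camk2a, Camk2b, Camk2d, Camk2g, Camk4, Camkk1 and Camkk2, 10 of the 55177 genes with a measured transcript. They were chosen by gene symbol, and the estimated counts of all their annotated transcripts were summed in each of 24 RNA-seq libraries. The neurons were dissected from the cortex of mouse embryos (embryonic day 16.5) and cultured. All cultures were silenced overnight with 1 µM tetrodotoxin, a sodium channel blocker, and 100 µM D-AP5, an NMDA receptor antagonist. They were then left at rest or depolarized with 50 mM KCl for 30 minutes.

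Wild-type (WT) cultures without a guide RNA were sampled after 7 days in vitro (DIV7) with 0.1% DMSO, with 2 libraries at rest and 2 under KCl, from polyA RNA. The other 20 libraries came from cultures of 18 days (DIV18), from total RNA depleted of ribosomal RNA. Control cultures carried a non-targeting CRISPR guide (NT; 2 libraries at rest, 2 under KCl). The remaining cultures carried guides against Smarcc2, which encodes a core subunit of the BAF chromatin remodelling complex, together with a construct. The constructs were an empty vector (KO vector; 3 at rest, 3 under KCl), wild-type Smarcc2 (KO WT; 2 at rest, 3 under KCl), the S586E substitution (KO S586E; 3 at rest only) and the S586A substitution (KO S586A; 2 under KCl only). Each embryo's cortex was treated as a biological replicate per the labels' protocols. The neurons were not sorted, and the labels give no count of edited cells.

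Calcium entering a neuron binds calmodulin, and the complex switches on these serine/threonine kinases. Camkk1 and Camkk2 encode the upstream kinases that phosphorylate and further activate CaMKI and CaMKIV, while CaMKII assembles into multimeric holoenzymes that phosphorylate their own subunits and hold activity after calcium has fallen. In forebrain neurons CaMKII is among the most abundant proteins of excitatory synapses and is required for lasting synaptic potentiation, and CaMKIV acts in the nucleus on CREB-dependent transcription.

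The libraries held 24536056 to 30135576 estimated counts at DIV7 and 14510199 to 24024959 at DIV18, and each kinase gene held at least 344 counts in every library. All 10 genes passed the low-count filter in every fit. Mean Smarcc2 levels, in CPM (counts scaled by TMM to a common library total), were 251 in NT and 53.6 in KO vector at rest, and 278 and 52.2 under KCl, while the constructs with Smarcc2 lay between 786 and 1322. Neuronal markers (Map2, Rbfox3, Tubb3, Syt1 and Snap25) were all detected, with mean summed levels of 842 to 2619 TPM (transcripts scaled by length to a fixed library total), and the summed levels of 5 microglial and of 5 fibroblast or vessel markers stayed under 5 TPM in every group mean. Astrocyte markers were present in every group (108 to 213 TPM summed), so the cultures also held RNA of glia. In bulk RNA, fewer cells of a type and less RNA per cell cannot be told apart, and this holds for every difference given here. The sum of Fos, Npas4 and Egr1, genes that neuronal activity induces within minutes, rose with KCl. Its mean went from 20.2 to 1226 TPM at DIV7 and from 21.7 to 112 in NT. In KO vector it went from 14.3 to 125 and in KO WT from 11.5 to 144. The rise was uneven at DIV18, where single KCl libraries spanned 64.0 to 159 TPM in NT. They spanned 87.9 to 145 in KO vector and 58.9 to 239 in KO WT, against 1208 to 1244 at DIV7.

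Levels of the kinase genes were compared with each other on the TPM scale, which divides by transcript length. At DIV7 at rest Camk2b, the CaMKII beta subunit that binds actin, was highest with 449.6 and 414 TPM in the 2 libraries. Camk2a, the alpha subunit of mature forebrain synapses, followed with 153 and 138 TPM, and Camk2g, the gamma subunit, with 102 and 85.7 TPM. These first positions did not overlap between libraries. Camk1g, Camkk2 and Camk4 followed with means of 62.3, 56.9 and 52.8 TPM, and each overlapped its neighbour in the order. Camk2d, the delta subunit, stood at a mean of 47.7 TPM and Camk1d and Camk1, both CaMKI genes, at 44.1 and 43.3, of which Camk1d and Camk1 overlapped each other and Camk2d overlapped Camk1d. Camkk1 was lowest with a mean of 26.5 TPM.

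In NT cultures at DIV18 the order was led by Camk2a, with 299.6 and 331 TPM at rest, above Camk2b with 187 and 193 TPM. Camk2g followed with 54.9 and 55.7 TPM, and then Camk2d with 30.4 and 38.9 TPM. Camkk1, Camkk2, Camk1d and Camk1 lay between means of 22.8 and 18.7 TPM and each overlapped the next. Camk4 stood at 14.2 and 12.5 TPM, and Camk1g was lowest with 9.38 and 6.52 TPM. Over all 20 DIV18 libraries Camk2a ranged from 196 to 331 TPM and Camk1g from 6.52 to 15.5 TPM.

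The make-up of CaMKII itself separated the 2 culture ages in every library. Camk2a made up 19.6% to 20.3% of the summed TPM of the 4 CaMKII genes at DIV7 and 48.8% to 56.0% at DIV18. Camk2b made up 57.2% to 60.4% at DIV7 and 30.6% to 35.0% at DIV18. The ratio of Camk2a to Camk2b was 0.333 to 0.344 at DIV7 and 1.44 to 1.83 at DIV18. The 4 CaMKII genes together held 70.8% to 72.5% of the TPM of all 10 kinase genes at DIV7 and 81.9% to 85.5% at DIV18.

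**Figure D1:**
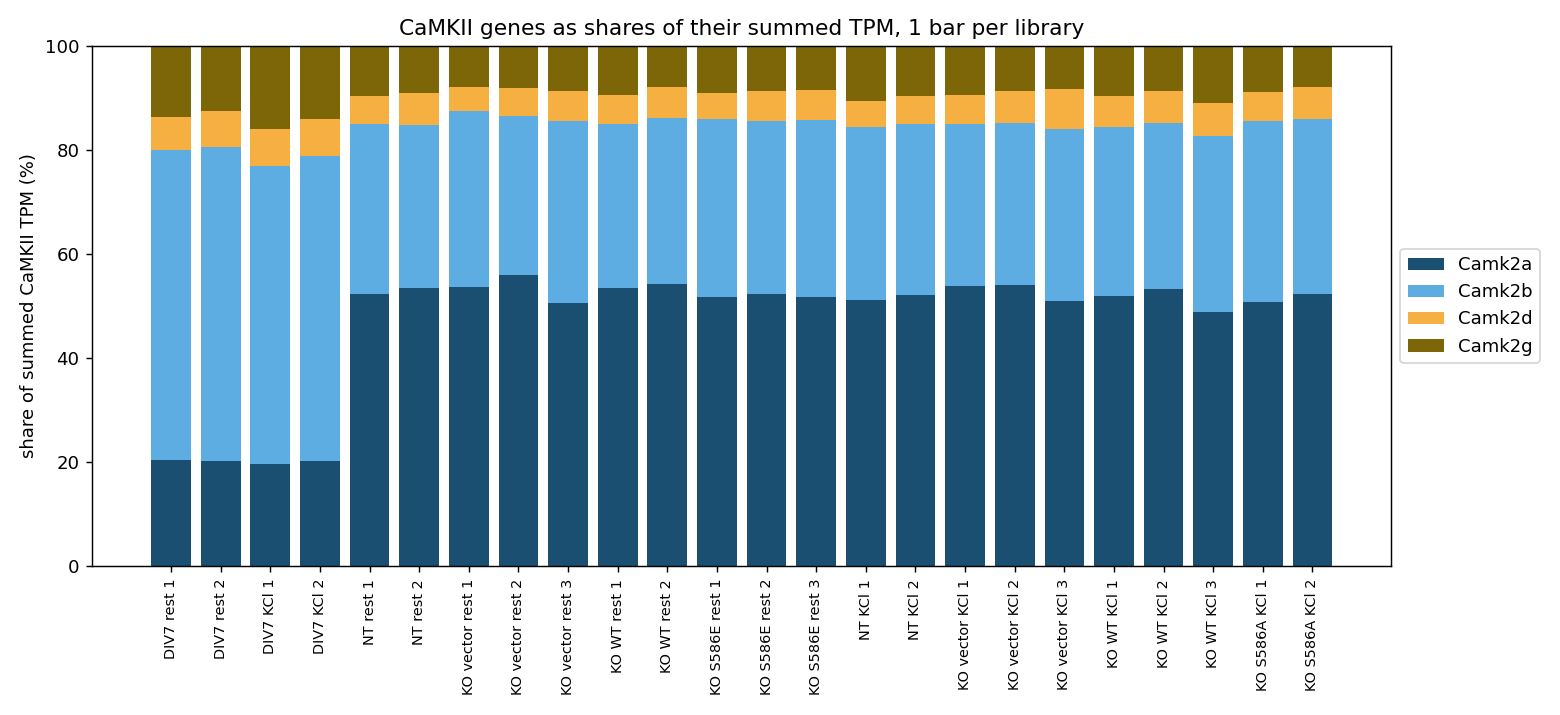
Share of each CaMKII gene (%) in the summed TPM of Camk2a, Camk2b, Camk2d and Camk2g, with 1 bar per library. Camk2a holds 19.6% to 20.3% in the 4 DIV7 bars and 48.8% to 56.0% in the 20 DIV18 bars.

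The comparison of NT at DIV18 with DIV7, both at rest, asked how the kinase genes differ with the age of the culture. Age, RNA selection (total against polyA) and the guide RNA change together between these groups and cannot be told apart. DMSO may differ as well, since the labels give it for DIV7 and do not make clear whether the DIV18 cultures had it. By edgeR, 6 of 10 kinase genes passed an adjusted p under 0.05, beside 52.7% of the 22459 genes tested, a share that leaves the members' count near the background. The median log2 difference of the 10 genes was 0.20, against 0.01 over all genes tested.

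Camk2a showed the largest difference of the 10, higher at DIV18 by 2.60 on the log2 scale (SE 0.12, adjusted p = 3.06e-13). Camkk1, an upstream kinase, was higher by 0.93 (SE 0.08), Camk2d by 0.72 (SE 0.10) and Camk2g by 0.55 (SE 0.08) in the edgeR fit. On unscaled TPM all 3 were lower at DIV18, by log2 ratios of -0.22, -0.46 and -0.77, where the median of all genes was -1.28. Relative to that median they were higher by 1.07, 0.82 and 0.52, and Camk2a by 2.40. Non-coding genes held 13.3% to 14.9% of the TPM at DIV7 and 65.8% to 75.8% at DIV18, and their part in these TPM differences was not tested.

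Camk1g, a membrane-anchored CaMKI, was lower at DIV18 by a log2 difference of -1.76 (SE 0.16, adjusted p = 5.41e-09), and its 65.9 and 58.7 TPM at DIV7 lay far above the 9.38 and 6.52 TPM of NT. Camk4, the nuclear kinase, was lower by -0.68 (SE 0.19, adjusted p = 0.00495), from 51.6 and 54.0 TPM to 14.2 and 12.5. Both genes were also lower on unscaled TPM and relative to the median. Camk1, Camk1d, Camk2b and Camkk2 did not pass, with log2 differences from -0.11 to 0.26, and Camk1d passed when the replicate number was a block (adjusted p = 0.0168) or when only the compared groups were fitted (adjusted p = 0.0372).

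Coding exons used by only some transcripts of Camk2a, Camk2d and Camk2g were followed as the share of TPM, among a gene's transcripts that span the exon's place, that includes the exon. The shares rest on the authors' division of reads between like transcripts, which carries no error in the files, and they were computed after transcript shares had been seen, so they are given with no test. Camk2a has a coding exon of 33 bases in transcript Camk2a-201 that Camk2a-203 lacks; the form with the exon is known as alpha-B and carries a nuclear localization signal. Its inclusion was 23.97% to 31.2% in the 4 DIV7 libraries and 7.73% to 16.8% in the 20 DIV18 libraries, so the ages did not overlap. Among the DIV18 groups its mean ran from 10.2% in KO vector under KCl to 15.3% in KO S586E at rest. Camk2d has a coding exon of 60 bases (chr3:126805857-126805916, GRCm38) whose inclusion was 56.6% to 68.6% at DIV7 and 68.1% to 90.6% at DIV18, with an overlap between the ages. A Camk2d exon of 42 bases downstream of it (chr3:126808208-126808249) was included at 78.1% to 79.6% at DIV7 and 59.6% to 78.2% at DIV18, again with a small overlap. At rest this exon was included at 61.7% and 66.4% in NT and at 71.1% to 78.2% in KO vector. Under KCl the order was opposite, at 71.6% and 73.8% in NT and 59.6% to 70.0% in KO vector. The groups did not overlap in either state. Those of the Camk2a exon did not overlap under KCl either (12.03% and 13.1% in NT, 7.73% to 11.97% in KO vector). The other exons followed here overlapped in both states. Groups of 2 and 3 libraries separate easily, and the share of all exons that do so was not counted. In Camk2g an exon of 33 bases (chr14:20747819-20747851) was included at 62.0% to 75.1% and 59.5% to 81.7%, and an exon of 69 bases (chr14:20745792-20745860) at 44.1% to 55.3% and 37.5% to 71.2%. Another Camk2g exon, of 114 bases (chr14:20741378-20741491), was included at 16.7% and 17.8% at DIV7 at rest and at 10.9% and 12.6% under KCl. These did not overlap, nor did those of the Camk2a exon at DIV7 (28.5% and 31.2% at rest, 23.97% and 27.7% under KCl). At DIV18 the Camk2g exon of 114 bases was included at 13.8% to 24.9%.

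Sequences of 4 exons are shown because they are part of what distinguishes the transcripts counted above; they are in lower case, in coding direction, from the GENCODE M21 transcripts on GRCm38, and no base is capitalised.
Camk2d exon of 60 bases, plus strand: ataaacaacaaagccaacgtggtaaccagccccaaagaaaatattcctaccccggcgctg
Camk2d exon of 42 bases, plus strand: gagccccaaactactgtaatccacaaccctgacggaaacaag
Camk2g exon of 33 bases, minus strand: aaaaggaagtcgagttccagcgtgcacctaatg
Camk2g exon of 69 bases, minus strand: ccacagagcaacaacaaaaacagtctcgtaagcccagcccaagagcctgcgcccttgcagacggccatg

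**Figure D2:**
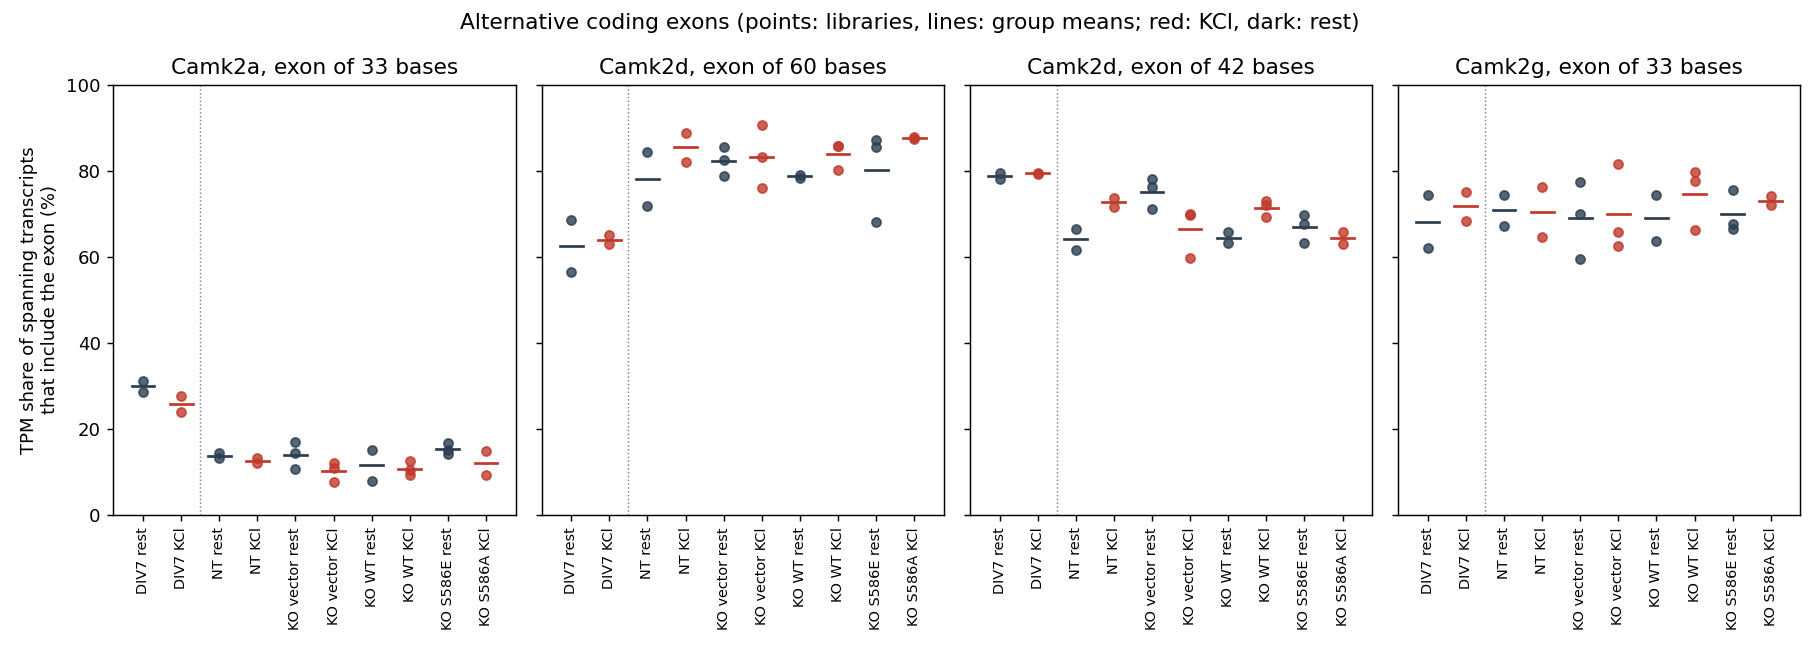
Inclusion (% of TPM of spanning transcripts) of 4 alternative coding exons in all 10 groups, with points for libraries and lines for group means. The Camk2a exon lies at 23.97% to 31.2% in DIV7 and at 7.73% to 16.8% in DIV18, while the Camk2g exon of 33 bases spans 59.5% to 81.7% at DIV18 and covers the DIV7 values.

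Depolarization for 30 minutes was compared with rest in 4 settings to ask whether the kinase genes respond to activity at the RNA level. None of the 10 genes passed an adjusted p under 0.05 in any setting. At DIV7, 17% of 19822 genes passed. At an unadjusted p under 0.05, 1 kinase gene passed at DIV7, Camk2d, against 31.6% of all genes. Its levels were 88.8 and 88.6 CPM at rest and 99.9 and 93.5 CPM under KCl (log2 difference 0.13, SE 0.05, adjusted p = 0.156). The 95% intervals of all 10 genes at DIV7 lay between -0.28 and 0.25 on the log2 scale, and the median of the 10 was -0.03.

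In NT cultures at DIV18, 0.00955% of 20940 genes passed and 4.33% had an unadjusted p under 0.05, of which the kinase genes held 1, Camk2d, with 113 and 142 CPM at rest and 108 and 107 CPM under KCl (log2 difference -0.25, SE 0.10). In KO vector cultures 0.0716% of genes passed and 10.3% had an unadjusted p under 0.05, again with 1 kinase gene, Camk1. Camk1, a CaMKI whose product also acts in axon growth, was at 18.5, 22.2 and 22.9 CPM at rest and 30.4, 25.5 and 30.5 CPM under KCl (log2 difference 0.44, SE 0.13, adjusted p = 0.288). The Camk1 libraries of the 2 states did not overlap, nor did those of Camk1g, Camk2d and Camkk2. Such separation was not particular to KO vector: Camk2a, Camk2d, Camk4 and Camkk1 did not overlap at DIV7 or in NT. In KO WT every kinase gene overlapped. How many of all genes separate in this way was not counted. In KO vector Camk1 passed by edgeR when low-count genes were kept (adjusted p = 0.0292), a fit that called 515 of 41147 genes. In KO WT cultures 0.043% of genes passed, 4.97% had an unadjusted p under 0.05 and no kinase gene was among them. DESeq2 called 0 kinase genes in each of these 4 settings. An edgeR fit with the replicate number as a block called Camk2d and Camkk2 with KCl at DIV7 (adjusted p = 0.0410 and 0.0481). That fit called 5857 of all 19822 genes, against 3371 without the block. Camk2g, for comparison, had log2 differences of 0.08, -0.02, 0.02 and 0.00 in the order given here.

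**Figure D3:**
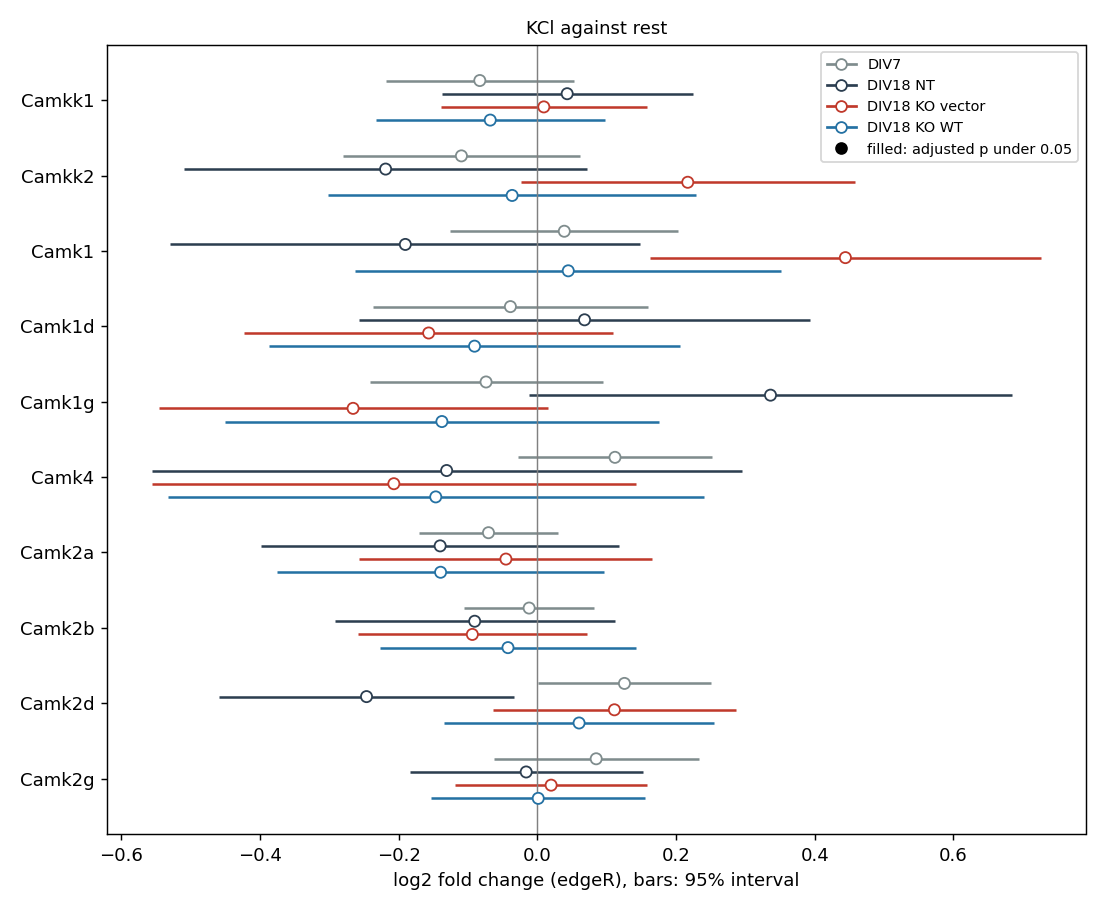
Log2 difference of KCl against rest for the 10 kinase genes with 95% intervals in DIV7, NT, KO vector and KO WT cultures, with filled points for an adjusted p under 0.05. No point is filled, and the highest value is Camk1 in KO vector at 0.44.

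Of 99 annotated transcripts of these genes, 66 were tested at DIV7, and 2 passed by edgeR, against 1.36% of 53122 transcripts tested. Camkk2-204, a protein-coding transcript that lacks 4 exons with coding sequence of Camkk2-201, fell with KCl from a mean of 13.9% to 2.06% of the gene's counts (log2 difference -2.80, SE 0.28, adjusted p = 0.0458). Camk2b-215, which has no coding sequence and holds under 10% of its gene's counts, fell by 2.35 on the log2 scale (SE 0.10, adjusted p = 0.0159) and was named after its values were seen. Both calls were lost when any 1 of the 4 libraries was left out, with adjusted p from 0.133 to 0.168. The retained-intron transcript Camkk1-203 held 39.3% of Camkk1 counts at rest and 27.1% under KCl at DIV7 and did not pass (log2 difference -0.58, adjusted p = 0.128); it held 3.57% to 6.98% in the DIV18 group means. Retained-intron transcripts of Camk1 held 20.7% at rest and 12.3% under KCl at DIV7.

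Loss of Smarcc2 was examined by comparing KO vector with NT. The labels name no added construct for NT. Guide and added vector thus change together between these groups and cannot be told apart. At rest, 4 of 10 kinase genes passed an adjusted p under 0.05 by edgeR, 1 higher and 3 lower, beside 5.9% of the 20940 genes tested. The median log2 difference of the 10 genes was -0.27, against 0.02 over all genes tested.

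Camk1g was higher in KO vector. Its levels were 23.4 and 15.8 CPM in NT and 41.7, 34.3 and 35.5 CPM in KO vector (log2 difference 0.92, SE 0.15, adjusted p = 0.00225). Every KO vector library lay above both NT libraries. The change was carried by its main transcript Camk1g-201, which held at least 91.5% of the gene's counts in every library and was the only one of 77 kinase transcripts to pass at rest (log2 difference 0.91, adjusted p = 0.0393), beside 0.333% of 59803 transcripts. The call of this transcript was lost without NT rest replicate 2 (adjusted p = 0.509) or without KO vector rest replicate 1 (0.0988), 2 (0.0591) or 3 (0.0594).

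Camkk2, the upstream kinase that also activates AMPK, was lower, at 88.7 and 98.4 CPM in NT and 60.2, 62.1 and 70.1 CPM in KO vector (log2 difference -0.55, SE 0.13, adjusted p = 0.0158). Camk2d was at 113 and 142 CPM in NT and 97.3, 98.0 and 98.7 CPM in KO vector (log2 difference -0.38, SE 0.09, adjusted p = 0.0203). Camk2g was at 127 and 125 CPM in NT and 99.5, 97.7 and 95.2 CPM in KO vector (log2 difference -0.37, SE 0.07, adjusted p = 0.00614). In all 3 genes the groups did not overlap, and the 2 NT values of Camk2d lay farthest apart. The groups did not overlap in Camk1, Camk2a and Camk2b either, which did not pass, so this does not set the called genes apart. The share of all genes without overlap was not counted.

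Camk2a was at 1544 and 1709 CPM in NT and 1480, 1324 and 1186 CPM in KO vector (log2 difference -0.29, SE 0.11, adjusted p = 0.142). Camk2b was at 764 and 801 CPM in NT and 707, 604 and 652 CPM in KO vector (log2 difference -0.26, SE 0.09, adjusted p = 0.0927). Camk1 had a log2 difference of -0.44 (SE 0.15, adjusted p = 0.0894). These 3 genes did not pass by edgeR, though Camk2b passed by DESeq2 (adjusted p = 0.0472) and Camk1 and Camk2a when low-count genes were kept (adjusted p = 0.0202 for each). Camk1d, Camk4 and Camkk1 had log2 differences between 0.04 and 0.18. Camk4 ranged from 29.0 to 52.8 CPM among the 3 KO vector libraries at rest.

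The calls at rest depended on single libraries. Without NT rest replicate 2 no kinase gene passed, with adjusted p of 0.0977 for Camk1g, 0.497 for Camk2d, 0.0915 for Camk2g and 0.253 for Camkk2, and log2 differences of 0.66, -0.21, -0.38 and -0.47. Without KO vector rest replicate 1 the adjusted p was 0.0555 for Camk2d and 0.0567 for Camkk2, and a fit of only these 2 groups gave 0.128 for Camk2d and 0.0676 for Camk2g. Glial markers moved with the same comparison: 4 of 7 oligodendrocyte-lineage, 1 of 5 astrocyte and 1 of 3 tested microglial markers were lower in KO vector at rest. The astrocyte markers summed to 197 and 229 TPM in NT and to between 88.5 and 174 TPM in KO vector, and the oligodendrocyte-lineage markers to 49.1 and 52.4 TPM against 28.7 to 34.7, with 1 marker, Sox10, at 0 in KO vector. Of 5 excitatory markers 2 were higher. Inhibitory neuron markers varied widely between libraries, with sums of 141 and 205 TPM in NT and 63.7 to 307 TPM in KO vector at rest. The part of cell make-up in the kinase differences was not tested.

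**Figure D4:**
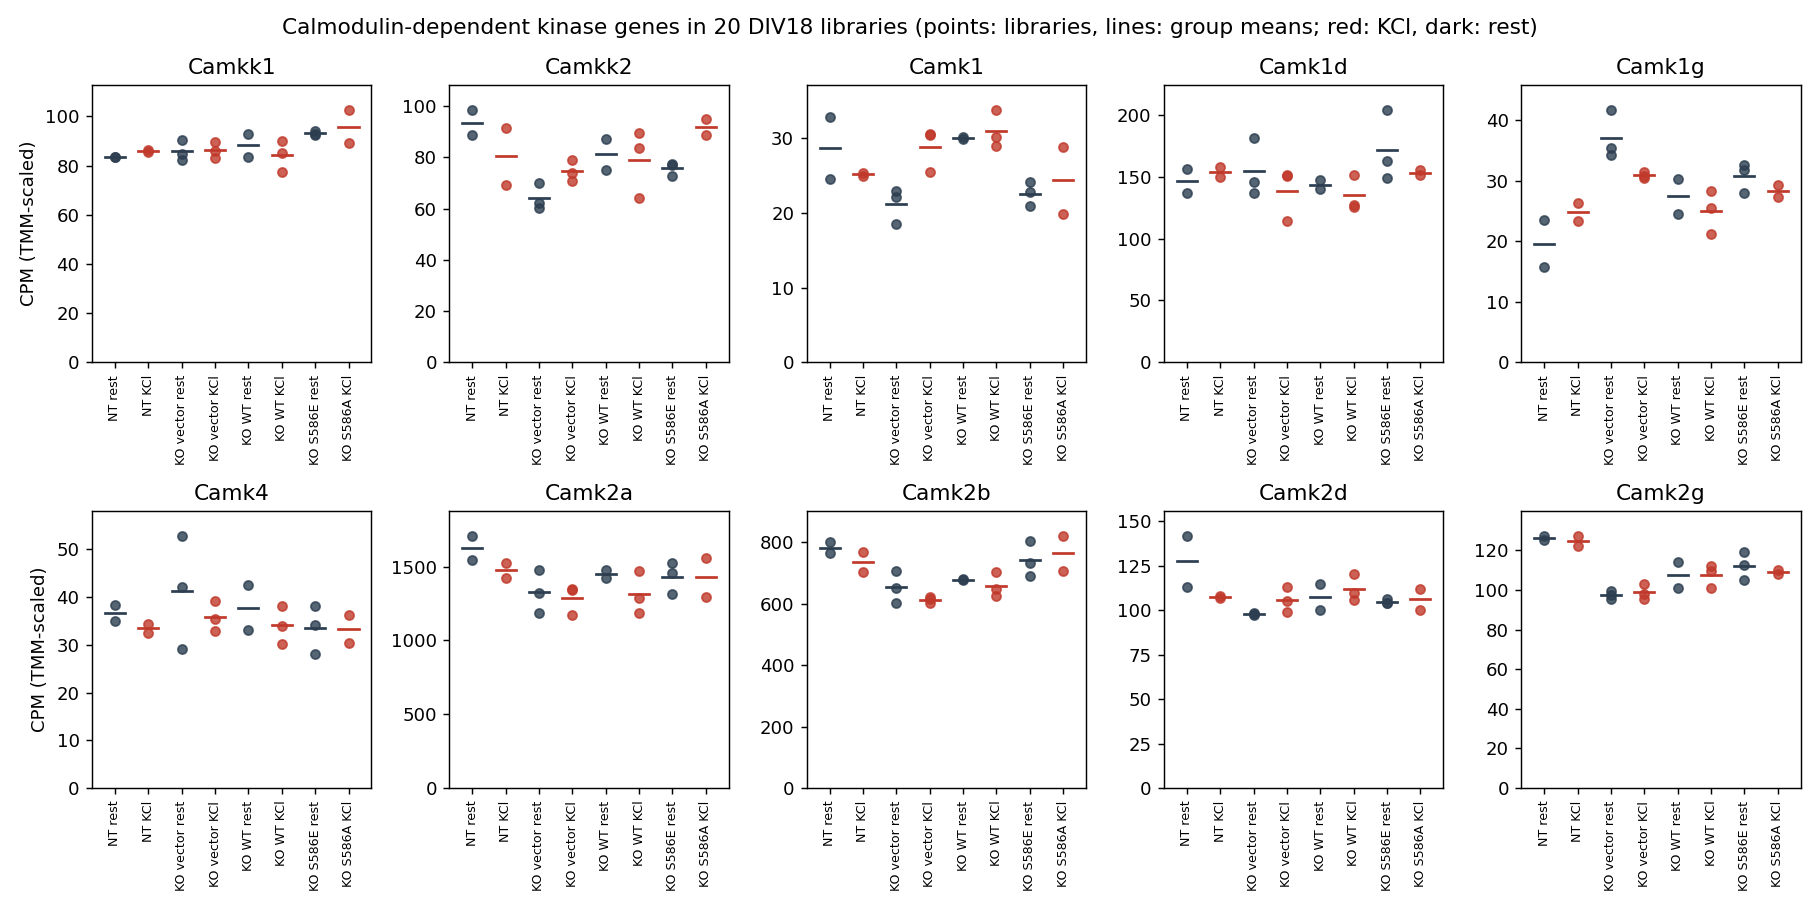
Level (CPM, TMM-scaled, axes from 0) of each kinase gene in the 20 DIV18 libraries by group, with points for libraries and lines for group means. Camk1g in KO vector at rest (34.3 to 41.7) lies above NT at rest (15.8 and 23.4), and Camk2g in KO vector (95.2 to 103) lies below NT (122 to 127) in both states.

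Under KCl, 1 of 10 kinase genes passed in the comparison of KO vector with NT, beside 2.67% of all genes tested. It was Camk2g, at 127 and 122 CPM in NT and 103, 97.9 and 95.5 CPM in KO vector (log2 difference -0.34, SE 0.07, adjusted p = 0.0205), again with no overlap. The groups of Camk1, Camk1g, Camk2a and Camk2b, which did not pass, did not overlap under KCl either. As at rest, the share of all genes without overlap was not counted. The Camk2g call was lost without NT KCl replicate 1 or NT KCl replicate 2, which left log2 differences of -0.31 and -0.37. It was also lost without KO vector KCl replicate 2 (adjusted p = 0.0680) or KO vector KCl replicate 3 (0.0772), and with effective-length offsets (0.0968). Camk2b had nearly the same log2 difference as at rest, -0.26 (SE 0.09, adjusted p = 0.124). Camk1g was at 23.4 and 26.3 CPM in NT and 30.7, 31.5 and 30.5 CPM in KO vector (log2 difference 0.32, SE 0.15, adjusted p = 0.304). No kinase transcript passed under KCl by edgeR, beside 0.0853% of transcripts tested; 9 of 77 had an unadjusted p under 0.05, and DESeq2 called 0. Under KCl 3 of 7 oligodendrocyte-lineage and 2 of 5 astrocyte markers were lower in KO vector, with astrocyte sums of 168 and 253 TPM in NT against 102 to 117 TPM.

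Whether the response to KCl itself differed between KO vector and NT was tested as an interaction. No kinase gene passed (0% of all genes passed by edgeR; DESeq2 called 0 kinase genes), but 4 had an unadjusted p under 0.05, beside 8.81% of all genes. These were Camk1 (difference of log2 responses 0.63, SE 0.21), Camk1g (-0.60, SE 0.21), Camkk2 (0.44, SE 0.18) and Camk2d (0.36, SE 0.13), with adjusted p from 0.472 to 0.510. The resting libraries that carry the calls above enter this test as well. Between ages, 1.82% of all genes had a response in NT that differed from that at DIV7, with 11.2% at an unadjusted p under 0.05. The kinase genes held 0 and 1 of these, the latter being Camk2d (difference of log2 responses -0.39, SE 0.14, adjusted p = 0.197); it passed without NT rest replicate 1 (adjusted p = 0.0441), and DESeq2 called 0.

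**Figure D5:**
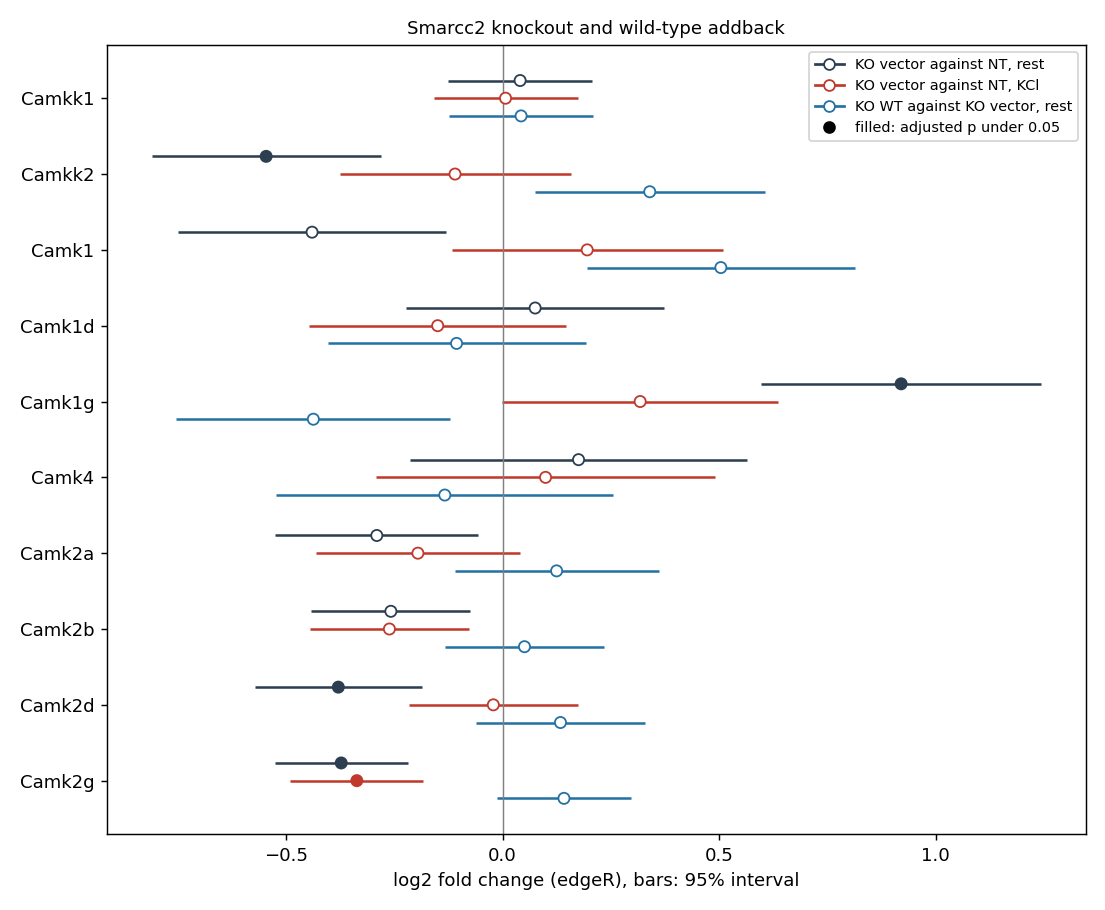
Log2 difference with 95% interval for KO vector against NT at rest and under KCl and for KO WT against KO vector at rest, for the 10 kinase genes, with filled points for an adjusted p under 0.05. Camk1g (0.92), Camkk2 (-0.55), Camk2d (-0.38) and Camk2g (-0.37) are filled at rest and only Camk2g (-0.34) under KCl; no point of the addback comparison is filled.

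Sequence upstream of the start site is shown for Camk1g, Camkk2 and Camk2d, the genes called at rest that the RefSeq promoter table (GRCm38.p6) holds; 7 of the 10 genes matched it. The 250 bases before each start are printed in coding direction, with GC boxes (GGGCGG on either strand) in capitals.
Camk1g, chr1:193370283-193370532, minus strand: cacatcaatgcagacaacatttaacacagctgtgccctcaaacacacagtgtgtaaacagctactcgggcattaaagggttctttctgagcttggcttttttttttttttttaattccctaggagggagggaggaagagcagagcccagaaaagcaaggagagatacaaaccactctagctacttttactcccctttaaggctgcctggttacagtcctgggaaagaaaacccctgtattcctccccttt
Camkk2, chr5:122779411-122779660, minus strand: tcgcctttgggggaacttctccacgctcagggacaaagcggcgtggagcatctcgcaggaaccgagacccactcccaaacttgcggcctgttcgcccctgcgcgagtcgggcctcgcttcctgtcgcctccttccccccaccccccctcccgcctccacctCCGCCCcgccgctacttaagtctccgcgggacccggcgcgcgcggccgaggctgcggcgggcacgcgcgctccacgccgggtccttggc
Camk2d, chr3:126596701-126596950, plus strand: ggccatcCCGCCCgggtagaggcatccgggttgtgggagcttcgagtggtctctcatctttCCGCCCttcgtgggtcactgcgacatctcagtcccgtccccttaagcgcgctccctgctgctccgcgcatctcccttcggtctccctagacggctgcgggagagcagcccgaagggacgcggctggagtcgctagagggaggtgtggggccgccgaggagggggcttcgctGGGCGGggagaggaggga

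The Camk1g window differed in base composition from the other 2. It had a GC content of 44.8% with 1 CpG and no GC box, whereas Camkk2 had 72.4% with 32 CpG and 1 GC box, and Camk2d 68.4% with 23 CpG and 3 GC boxes. Among 32851 windows of this length, 32.7% held a GC box. A cAMP response element (TGACGTCA), its shorter core TGACG, an AP-1 site (TGANTCA) and a TATA box (TATAAA) were searched on both strands and were not found in any of the 3 windows; they occurred in 1.55%, 17.8%, 6.75% and 12.4% of all windows, and the core also occurs inside the full element. The letters TGACG occurred in the windows of Camk1 and Camkk1. These are matches of letters and not measured binding. Windows of genes not called at rest had GC contents of 78.4% (Camk2b), 74.4% (Camkk1), 69.2% and 48.4% (Camk1d) and 58% (Camk1). A link between base composition and the differences was not tested.

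Adding wild-type Smarcc2 back was compared with the empty vector in knockout cultures. At rest no kinase gene passed by edgeR, beside 0.0143% of all genes, and DESeq2 called 0; 3 had an unadjusted p under 0.05, beside 11.1% of all genes. Camk1 was at 29.9 and 30.1 CPM with wild-type Smarcc2 and 18.5, 22.2 and 22.9 CPM with vector (log2 difference 0.50, SE 0.15, adjusted p = 0.212). It passed by edgeR when low-count genes were kept (adjusted p = 0.0119), a fit that called 604 of 41147 genes. Camk1g was at 30.3 and 24.6 CPM with wild-type Smarcc2, between the NT and the vector libraries (log2 difference against vector -0.44, SE 0.15, adjusted p = 0.284). Camkk2 was at 75.0 and 87.3 CPM (log2 difference 0.34, SE 0.13, adjusted p = 0.322). For these 3 genes the KO WT and KO vector libraries did not overlap at rest, and the same held for Camk2d and Camk2g. The share of all genes without overlap was not counted. The comparisons of KO WT with vector and of vector with NT share the vector libraries, so their opposite signs are not independent. Under KCl 0.00955% of all genes passed and no kinase gene did, also not by DESeq2; 3.99% of all genes and 1 kinase gene, Camk1g, had an unadjusted p under 0.05 (21.1, 25.5 and 28.2 CPM against 30.7, 31.5 and 30.5; log2 difference -0.31, SE 0.13).

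The substituted forms of Smarcc2 were each measured in 1 state. For S586E against wild-type at rest, 0% of genes passed by edgeR and no kinase gene did, also not by DESeq2. At an unadjusted p under 0.05, beside 12.9% of all genes, there was 1 kinase gene, Camk1, at 20.9, 22.7 and 24.1 CPM against 29.9 and 30.1 (log2 difference -0.41, SE 0.15, adjusted p = 0.252). For S586A against wild-type under KCl, 0% of genes passed by edgeR, and DESeq2 called 0 kinase genes. There 3 kinase genes, beside 8.71% of all genes, had an unadjusted p under 0.05: Camk1 (log2 difference -0.34, SE 0.15), Camk2b (0.21, SE 0.09) and Camkk1 (0.19, SE 0.08), with adjusted p from 0.548 to 0.556. S586A values of Camk1 were 28.8 and 19.9 CPM, of which the first lay close to the lowest wild-type value of 28.9.

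Against the empty vector, S586E at rest changed no kinase gene by edgeR or DESeq2, beside 0.0191% of all genes by edgeR. Camk2g (log2 difference 0.20, SE 0.07, adjusted p = 0.486) and Camk2b (0.18, SE 0.08, adjusted p = 0.626) had an unadjusted p under 0.05, beside 7.45% of all genes. Camk2g was at 119, 113 and 105 CPM with S586E, all above the 95.2 to 99.5 CPM of vector. Camk2d, Camkk1 and Camkk2 were also higher and Camk1g lower without overlap, while the groups of Camk2b overlapped. Separation over all genes was not counted. S586A against vector under KCl gave no call by edgeR, beside 0.00955% of all genes, with 2 kinase genes and 13% of all genes at an unadjusted p under 0.05. Camk2b was at 707 and 821 CPM with S586A and 622, 617 and 601 CPM with vector (log2 difference 0.32, SE 0.09, adjusted p = 0.159). It passed by DESeq2 (adjusted p = 0.0259), which called 208 of 7543 genes. It also passed by edgeR when low-count genes were kept (adjusted p = 0.0274), where 531 of 41147 genes were called. Camkk2 was at 88.8 and 94.9 CPM against 78.8, 73.9 and 70.8 (log2 difference 0.30, SE 0.13, adjusted p = 0.314). S586E and S586A were not measured in the same state, so no comparison between them was made.

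A list of 31 genes around the kinases, all of which were tested, was read beside them. Between NT at DIV18 and DIV7 at rest, 12 were higher and 9 lower by edgeR, beside 52.7% of all genes tested that passed, and the list had a median log2 difference of 0.16. Camk2n1, which encodes an endogenous inhibitor of CaMKII, was higher by 2.89 (SE 0.13), and Nrgn, a postsynaptic protein that holds calmodulin at low calcium, by 2.69 (SE 0.19). Gap43, a calmodulin-binding protein of growth cones, was lower by a log2 difference of -3.19 (SE 0.23). The 2 calmodulin genes of the list did not pass, with a median of 0.03. Hdac4 was higher (1.58) and Hdac5 lower (-0.86); both encode histone deacetylases that CaM kinases can phosphorylate and so keep out of the nucleus.

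With KCl at DIV7, 1 of the 31 genes rose and 5 fell, a share near the 17% of all genes that passed. Hdac5 rose by 0.17 on the log2 scale (SE 0.04, adjusted p = 0.0420). Crtc1, Crtc2 and Crtc3, coactivators of CREB, fell with log2 differences of -0.23, -0.47 and -0.59, as did Ppm1f, a phosphatase of CaM kinases (-0.35), and Eef2k, another calmodulin-dependent kinase (-0.27). The Hdac5 call was lost without any 1 of the 4 libraries, and those of Eef2k and Crtc1 without any 1 of 3. Crtc2 lost its call without either resting library and had a log2 difference of 0.54 (adjusted p = 0.234) over protein-coding transcripts alone, the opposite direction, and Crtc3 lost its call without rest replicate 1 (adjusted p = 0.0569). In KO vector with KCl 1 gene fell, Pcp4, a small calmodulin-binding protein (log2 difference -0.996, SE 0.165, adjusted p = 0.0223), beside 0.0716% of all genes. With the replicate number within a construct as a block Pcp4 did not pass (adjusted p = 0.155), and leaving out any 1 library of the comparison other than rest replicate 2 also ended the call, with adjusted p from 0.0742 to 0.165. No gene of the list passed in NT or KO WT.

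Between KO vector and NT at rest Pcp4 was higher (0.84, SE 0.19, adjusted p = 0.0124) and Eef2k lower (-0.55, SE 0.12, adjusted p = 0.00968), with 29 of 31 not passing, a share near the background since 5.9% of all genes passed, and a median of -0.04. Neither gene passed without NT rest replicate 2 (adjusted p = 0.262 and 0.316). Pcp4 ranged from 56.5 to 70.2 CPM in NT and from 96.7 to 130 CPM in KO vector. Under KCl only Calm3 of the list passed, lower in KO vector (-0.49, SE 0.10, adjusted p = 0.0148), at 1071 to 1139 CPM against 1443 to 1650 CPM, beside 2.67% of all genes. It did not pass without NT KCl replicate 2 (adjusted p = 0.280), KO vector KCl replicate 1 (0.0607) or KO vector KCl replicate 2 (0.0550). No gene of the list passed in the addback and substitution comparisons or in the 2 comparisons of responses.

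Over the 20 DIV18 libraries, Camk1g, Camk1 and Camk4 varied most among the kinase genes, with SDs of their log2 level of 0.30, 0.24 and 0.21, while Camkk1 varied least (0.09). The genes whose levels followed each of these most closely were taken as the 3 with the smallest SD of the log2 ratio among 10669 expressed genes. For Camk1g they were L3mbtl3, Tmem150c and Gabrg3 (SD of the log2 ratio 0.12 for each). For Camk1 they were Gkap1 (0.12), Phf10 (0.14) and Scpep1 (0.14), and for Camk4 they were Brpf3 (0.11), Lancl2 (0.11) and Neto1 (0.12). The libraries share groups and scaling, and these values are a description only.

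Reads on opposite strands of overlapping genes may be shared, because the counting was not stated to use strand. Camk1 (chr6:113334124-113343984) overlaps the end of Ogg1 on the other strand, which held 40 to 123 counts per library. Camk2d (chr3:126596302-126846326) contains short transcripts of unknown coding status, the largest with up to 111.5 counts. Camk1g lies at chr1:193346346-193370298, Camk1d at chr2:5293457-5714515, Camk2g at chr14:20734875-20794088, Camkk2 at chr5:122731170-122779409, Camk2b at chr11:5969644-6066362, Camkk1 at chr11:73019008-73042073, Camk2a at chr18:60925618-60988152 (its exon of 33 bases at chr18:60969011-60969043) and Camk4 at chr18:32934931-33191228 (GRCm38, GENCODE M21).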

How the data were processed

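RNA was sequenced from 24 libraries. Per the file headers, each deposited table lists transcripts with their length, effective length, estimated count and TPM. FastQC, cutadapt and kallisto are named in the submitters' processing notes, and the build and annotation are not given in the sources used here. The authors' estimated counts (expected counts) are not whole, so they were summed per gene and rounded, and the TPM values deposited by the authors were summed per gene for levels between genes. Of 142552 transcripts, 141429 (99.2%) matched GENCODE M21, and the 1123 unmatched ones held at most 0.467% of a library's counts. The effective length deposited by the authors served only for length offsets.

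Tests were edgeR 4.0.16 quasi-likelihood F tests (R 4.3.3), with TMM scaling, filterByExpr and Benjamini-Hochberg adjustment over all genes or transcripts tested, called at an adjusted p under 0.05. DIV7 (4 libraries), DIV18 (20 libraries in 8 groups) and all 24 libraries in 10 groups were fitted apart, with 2, 12 and 14 residual degrees of freedom. Intervals are 95% intervals of the fit. The scripts were tested on simulated data. Alternatives were DESeq2 1.42.0, other scaling, no low-count filter, effective-length offsets, protein-coding transcripts only, replicate blocks, only the compared groups, and leaving out each library. Transcript alternatives and those for the list were chosen after seeing the data. The members and lists were chosen with earlier results of these data known. All 10 kinase genes, the called genes of the list, transcripts holding at least 10% of a gene's counts in a group mean, and 3 genes per likeness were named. A further gene of the list is not reported here.

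In some comparisons libraries with the same replicate number deviated together. Correlations were over 0.1 in all 3 pairs of KO vector at rest and under KCl (0.153, 0.105, 0.296). The same held for KO WT and KO vector under KCl (0.151, 0.166, 0.308) and for KO S586E and KO vector at rest (0.352, 0.143, 0.344). In these comparisons the numbers were taken to pair the libraries, though KO vector rest replicate 1 was closer to another number under KCl. Between rest and KCl the correlation was -0.0899 in NT and -0.0796 in KO WT. S586A had 0.0208 with KO WT and 0.00385 with KO vector, and the remaining DIV18 comparisons 0.0825 to 0.137. The pairing comes from the data, is not stated in the labels and was not used in the main fits.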

Additional observations from a re-analysis of the deposited data

How the results depend on the processing

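No called kinase gene or transcript changed direction under the alternatives run: of 145 such settings over 14 called values, 120 kept the call and 25 did not. The 31 calls of genes of the list were rerun under alternatives added after seeing the data, of which 301 of 341 kept the call and 38 lost it in the same direction. The other 2 reversed Crtc2 over protein-coding transcripts alone, to log2 differences of 0.54 with KCl at DIV7 and 0.74 between ages (adjusted p = 0.234 and 0.281). The 6 kinase genes called between ages passed all 11 alternatives, leaving out a library included. In the paired comparisons the replicate block changed no kinase call, and for S586E against vector at rest it moved the number of all genes called from 4 to 14. At DIV7 the correlation was 0.0611, with each library closer to its own number, and the numbers were not taken to pair the libraries. This value does not settle whether they do. The block there gave 2 kinase genes with KCl (Camk2d and Camkk2, adjusted p = 0.0410 and 0.0481 by edgeR), beside 5857 of 19822 genes. Elsewhere the block left the count of kinase genes unchanged except for 7 in place of 6 between ages. DESeq2 called 1 in S586A against vector under KCl, beside 208 of 7543 genes. Keeping low-count genes gave 1 in KO vector with KCl, 1 in KO WT against vector at rest and 1 in S586A against vector under KCl. In that order these fits called 515, 604 and 531 of 41147 genes, against 15, 3 and 2 genes with the filter. KO vector against NT at rest had 2 with only the compared groups and 0 to 5 when a library was left out. Under KCl it had 0 with effective-length offsets and 0 to 1 when a library was left out, and the difference of responses between ages had 0 to 1. Of kinase transcripts, DESeq2 called 10 with KCl at DIV7, where it called 8190 of all 53122 transcripts. It called 5 in KO vector at rest, where it called 1513 of 41252. The transcript calls by edgeR were lost in fits that left out 1 library, as given above. The causes were not tested.

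With 2 to 3 libraries per group, leaving out 1 leaves some groups with a lone library that is assumed to vary like the others. A gene that misses the threshold is not shown to be unchanged. RNA levels say nothing of kinase activity or phosphorylation.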
